A study of Mus musculus with 4 samples.

Results

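The voltage-gated sodium and calcium channel genes were taken as every listed gene symbol that read Scn followed by digits and a or b, or that began with Cacna, Cacnb or Cacng. The rule found 38 of the 28250 genes listed in each library, of which 19 encode pore-forming subunits (9 sodium, 10 calcium) and 19 encode auxiliary subunits (4 sodium beta, 4 calcium alpha2delta, 4 calcium beta and 7 calcium gamma). The RNA came from TBV2 cells, a feeder-dependent mouse embryonic stem cell (ESC) line of the 129/SvP strain that was kept with LIF, the cytokine that holds ESCs undifferentiated. Cells were held for 24 h with solvent or with 5 µM MS-275, an inhibitor of class I histone deacetylases (HDACs), and 2 libraries were sequenced for each condition. The comparison asks how the inhibitor changed the transcripts of stem cells kept under self-renewal conditions. Solvent and MS-275 cells shared the line, the medium and the time. Nothing in the labels says whether the libraries of 1 condition came from separate cultures, so the p-values below measure the spread between these libraries only. The fits draw each gene's spread toward that of other genes, so a standard error below is not the gene's own spread alone.

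Voltage-gated sodium channels open on depolarization and carry the rising phase of the action potential in neurons and in muscle. Voltage-gated calcium channels turn the same depolarization into calcium entry, which drives transmitter release, contraction and gene expression. In both families a single large alpha subunit of 4 repeats forms the pore and the voltage sensors, and smaller auxiliary subunits set its surface level and its gating. The T-type calcium pores, encoded by Cacna1g, Cacna1h and Cacna1i, open at low voltage and can work without the auxiliary subunits that the high-voltage pores need.

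Many neuronal channel genes carry a binding element of REST, a repressor that recruits HDAC-containing complexes, and the genomic neighbourhood of the channel genes was therefore searched for its core letters. The search took CAGCACC, any 2 bases and then GGACAG, on both strands of mm9, from 5000 bases before to 5000 bases after each gene. A match was present at 7 of 38 channel genes (18.4%) and at 410 of 22238 protein-coding genes (1.84%). Channel genes are long, and per megabase searched there were 1.15 matches at channel genes and 0.368 at protein-coding genes. The matched sequences are shown because 4 of the 7 genes were among the channel genes called higher with MS-275 in a fit described below. That fit called 10 of 36 channel genes and 21.0% of all genes tested higher. Cacna2d3, 1 of the 4, entered the fit through its MS-275 libraries alone. Each runs 5′ to 3′ on the strand of the match, with the letters searched in capitals.
Cacna1b, intron, chr2:24617601-24617623, plus strand: ccgtCAGCACCacGGACAGctgc
Cacna1h, intron, chr17:25537579-25537601, minus strand: gcttCAGCACCacGGACAGcgac
Cacna2d3, intron, chr14:30470389-30470411, minus strand: tgttCAGCACCaaGGACAGcaac
Scn3b, exon, chr9:40077325-40077347, minus strand: ggctCAGCACCacGGACAGtagc
Cacna1a, intron, chr8:86993186-86993208, minus strand: tttgCAGCACCatGGACAGaacc
Cacna1f, downstream of the gene, chrX:7215861-7215883, plus strand: gctcCAGCACCgtGGACAGagcc
Scn10a, intron, chr9:119573417-119573439, plus strand: tgttCAGCACCagGGACAGagct
The Cacna1b match lay 1053 bases into the gene and the Scn3b match 528 bases into it, while those of Cacna1h, Cacna2d3, Cacna1a and Scn10a lay at least 30043 bases in. A match is a run of letters and no measure of binding.

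The deposited value of a gene is a normalized expression value whose formula is not given in the sources used here. In each library it was set against distinct alignment positions summed over the 4 libraries, across 14967 genes. It tracked the positions per exon base (Spearman 0.894 to 0.930) more closely than the number of positions itself (0.778 to 0.870). Levels of different channel genes are therefore compared below as values per length. The values of a library were not set against its own positions. The libraries held 9785619 to 23467935 alignments. Those of replicate 1 held repeated positions (53.2% and 54.4% of alignments) and those of replicate 2 held none, which left 9122347 to 10973569 distinct positions. Over all genes, limma on log2(value + 0.005) with condition alone as a term called 1 of 20336 genes at an adjusted p under 0.05 (Benjamini-Hochberg). In the authors' column headers replicate 1 of both conditions carries the same word, and libraries of the same replicate number deviated together (r = 0.764 across genes), so the fit with the replicate number as a block is given too. As a second measure, distinct alignment positions on exons were counted per gene and fitted with limma-voom. In bulk RNA, fewer cells that express a channel and less channel RNA per cell cannot be told apart.

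With condition alone none of the 36 channel genes tested passed an adjusted p of 0.05, against 0.00492% of all genes tested. An unadjusted p under 0.05 was reached by 7 that were higher and by 0 that were lower. Of all 20336 genes tested it was reached by 2974 that were higher and by 564 that were lower. Among the 7, Scn11a, Cacna2d3 and Cacng1 met the minimum value through their MS-275 libraries alone and had to differ. With the replicate block 10 channel genes were higher (21.0% of all genes tested were) and 0 were lower (6.46% of all genes). With distinct positions and condition alone, 8 of 33 channel genes were higher (13.3% of all genes) and 0 lower (6.66%), and with the block added 14 were higher (26.1%) and 1, Cacnb1, was lower (18.2%). The 10 calls with the block fell to 3 under quantile normalization (Cacna1b, Cacna1g and Cacna1s), where 14.4% of all genes tested were higher. They fell to 0 when genes with low values were kept in the fit, where 0 of all 28250 genes passed. Of the 8 and 14 higher by distinct positions, 6 and 11 had at least 1 solvent library at the minimum of 10 positions. Of the 26 members that reached the minimum value of 0.001 in both solvent libraries 6 were higher with the block (21.0% of all genes tested). The shares of all genes that met these solvent minimums were not counted, so these counts cannot be set against a like share. Scn10a and Cacng3 did not reach 0.001 in 2 libraries and were not tested.

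As plain ratios within each replicate pair, 11 channel genes rose 2-fold or more in both pairs (11.5% of all genes listed) and 0 fell as far in both (2.04%), with values under 0.001 set to 0.001. With values under 0.005 or 0.01 set to that value the number was 6 (6.59% of all genes) or 4 (4.47%). Both MS-275 values lay above both solvent values for 14 of the 36 tested (32.3% of all genes tested) and below them for 2, Cacna1a and Scn2b (12.0%). The channel genes were split by role. By that rule 10 of 18 pore genes and 4 of 18 auxiliary genes tested lay above solvent (32.3% of all genes tested). By direction alone, 17 of 18 pore genes and 8 of 18 auxiliary genes were higher in both pairs. For another 8 auxiliary genes the pairs went opposite ways. The share of all genes higher in both pairs was not counted. Small rises count by direction, such as log2 changes of 0.12 and 0.0078 for Scn3a. The median log2 fold change was 0.51 over the pore genes and 0.22 over the auxiliary genes, against 0.20 over all genes tested, and the difference between the roles was not tested. The pore median was 0.17 without MS-275 replicate 1, 0.29 without solvent replicate 2, 0.82 without solvent replicate 1 and 0.83 without MS-275 replicate 2, and that of the auxiliary genes was 0.10, 0.17, 0.42 and 0.51. Median-ratio scaling of the libraries brought the median of all genes to 0.03, the pore median to 0.39 and the auxiliary median to 0.13.

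**Figure D1:**
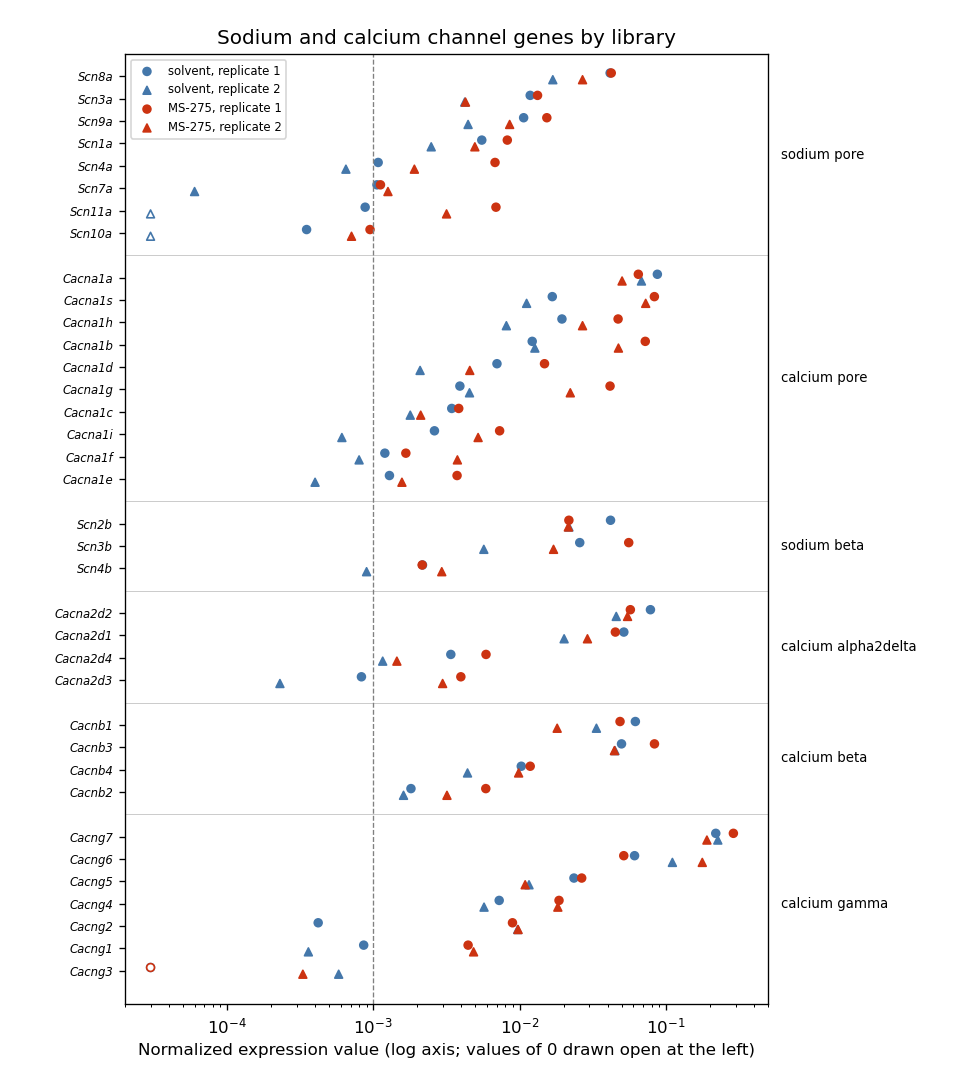
Normalized expression value of the channel genes shown (log axis, no unit) in each library, by role and in order of the solvent mean. Blue marks solvent and red MS-275, circles replicate 1 and triangles replicate 2, and the dashed line marks 0.001. The red points of Cacna1s, Cacna1b and Cacna1g lie well to the right of the blue ones, while those of Cacng7, Scn8a and Cacnb3 overlap with them.

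Of the 10 calcium pores tested 5 were higher with the block (21.0% of all genes tested). Of the 9 that could be tested by distinct positions 7 were higher with the block (26.1% of all genes). In solvent-treated ESCs the most highly expressed calcium pore was Cacna1a, which encodes the P/Q-type channel of presynaptic terminals, and its solvent values lay above those of every other calcium pore. Next came Cacna1s, Cacna1h and Cacna1b, whose solvent values overlapped. Cacna1e, which encodes the R-type channel, had the lowest mean at 0.000845, though its solvent values overlapped those of Cacna1f.

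Cacna1s encodes the L-type pore that acts as the voltage sensor for contraction in skeletal muscle (mm9 chr1:137949327-138016399, plus strand, 45 exon blocks). Its values were 0.0168 and 0.0112 with solvent and 0.0836 and 0.0729 with MS-275. The groups did not overlap, and the log2 fold change of 2.15 ± 0.29 (SE with the block, n = 2 libraries per condition) had an adjusted p of 0.0989 with condition alone and of 7.21e-05 with the block in limma. Its exons held 58 and 28 distinct positions with solvent and 284 and 305 with MS-275, a log2 fold change of 2.81 with an adjusted p of 0.00508 in limma-voom with condition alone.

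Cacna1b encodes the N-type pore, which with the P/Q-type supplies calcium for transmitter release (chr2:24459407-24618672, minus strand, 50 exon blocks). The values were 0.0122 and 0.0127 with solvent, very close to each other, and 0.0724 and 0.0475 with MS-275. The log2 fold change was 1.87 ± 0.31 (adjusted p = 0.152 with condition alone and 0.000375 with the block, limma). Distinct positions on exons went from 119 and 73 to 492 and 484, and the exon blocks with at least 1 position from 28 and 27 to 45 in both MS-275 libraries. Positions within introns moved alongside, from 158 in the 2 solvent libraries together to 1010 in the MS-275 libraries, 6.66 times as many once scaled to the exonic positions of the libraries. Introns of Cacna1s behaved alike, with 104 positions against 661 (6.62 times), so the extra reads of both genes were spread over exons and introns.

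All 3 T-type pores were higher with the block (21.0% of all genes tested) and by distinct positions with condition alone (13.3%). Under quantile normalization with the block Cacna1g alone of the 3 was called higher (14.4% of all genes tested), and Cacna1h and Cacna1i were not. Cacna1g, which encodes a T-type pore of thalamic and cardiac pacemaking (chr11:94269705-94335414, minus strand, 38 exon blocks), had values of 0.00391 and 0.00455 with solvent and 0.0416 and 0.0222 with MS-275. The log2 fold change was 1.95 ± 0.32 (adjusted p = 0.121 with condition alone and 0.000395 with the block, limma), and exonic positions rose from 67 to 458 over the 2 libraries of a condition. With solvent Cacna1g stood below Cacna1h without overlap, and with MS-275 the values of both genes overlapped.

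Cacna1h, a T-type pore of sensory neurons and muscle (chr17:25511230-25570728, minus strand), had values of 0.0195 and 0.00813 with solvent and of 0.0472 and 0.0270 with MS-275. The groups did not overlap, the log2 fold change was 1.19 ± 0.31 and the adjusted p was 0.424 with condition alone and 0.00916 with the block (limma). Leaving out solvent replicate 2 gave 0.74 and leaving out solvent replicate 1 gave 1.64. By distinct positions the log2 fold change was 1.497 (adjusted p = 0.00826 with condition alone, limma-voom).

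Cacna1i, the T-type pore found mainly in brain (chr15:80117668-80228709, plus strand, 37 exon blocks), had values of 0.00262 and 0.000610 with solvent and 0.00731 and 0.00521 with MS-275. Since these values are close to the constant of 0.005 added before the logarithm, the log2 fold change of 0.78 ± 0.24 (adjusted p = 0.218 with condition alone and 0.0243 with the block, limma) is smaller than that of its distinct positions, 2.81 (adjusted p = 0.00844 with condition alone, limma-voom). Its exons held 12 and 10 positions with solvent and 86 and 79 with MS-275.

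The other high-voltage calcium pores changed less in the values. Cacna1d, an L-type pore of pacemaking and endocrine cells, had values of 0.00701 and 0.00209 with solvent and 0.0148 and 0.00457 with MS-275, over 2-fold in each pair though the groups overlapped. It did not pass with the values (0.58 ± 0.27, adjusted p = 0.125 with the block, limma), whose log2 fold change was 0.053 without MS-275 replicate 1 and 1.10 without MS-275 replicate 2. It passed by distinct positions with the block (1.39, adjusted p = 0.000727), where 5.54% of its exon bases are shared with another gene, Chdh. Cacna1a was the calcium pore whose value was lower in both pairs, at 0.0876 and 0.0682 with solvent and 0.0649 and 0.0503 with MS-275, and did not pass (-0.41 ± 0.25, adjusted p = 0.245 with the block). Its distinct positions went from 386 and 399 to 285 and 422, so the groups overlapped there. Cacna1c, the main L-type pore of heart and brain, did not pass, at a log2 fold change of 0.07 ± 0.23 (adjusted p = 0.859 with the block, limma).

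**Figure D2:**
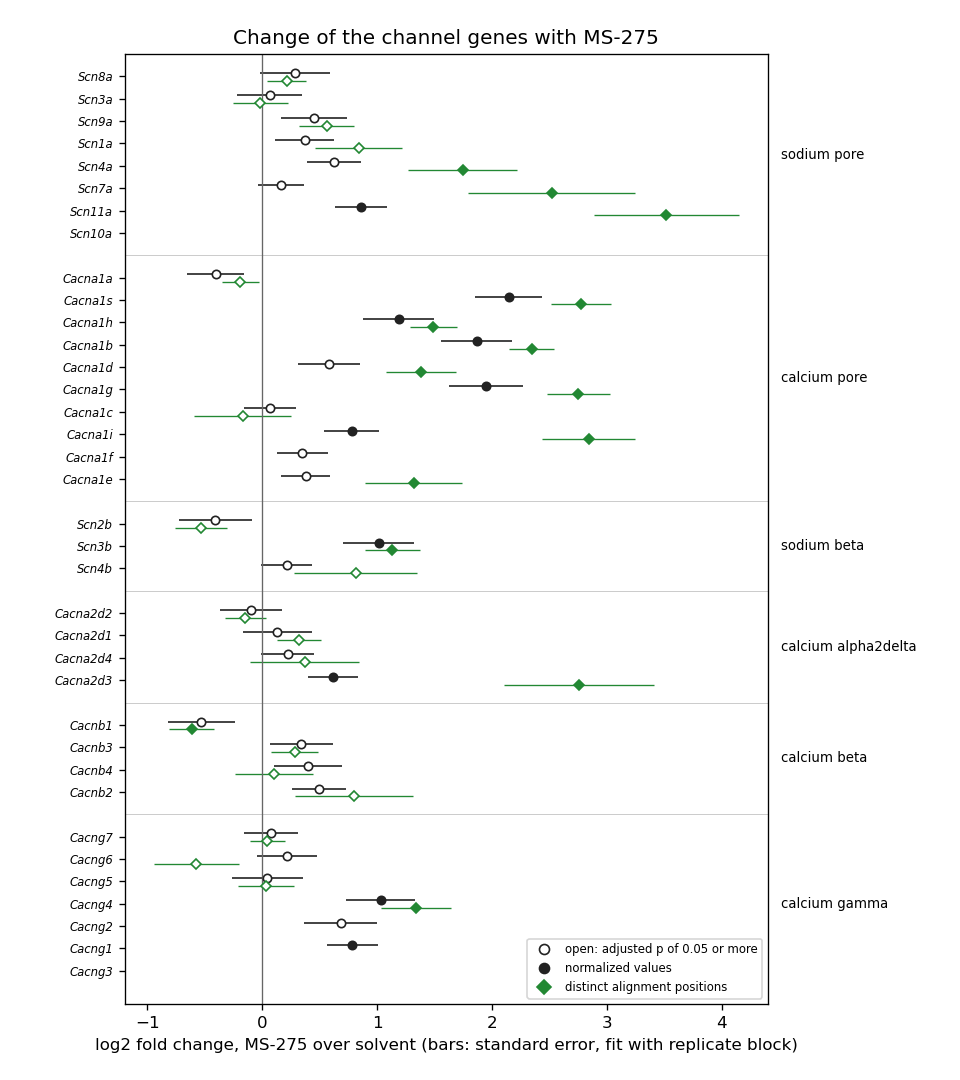
log2 fold change of the tested channel genes shown, MS-275 over solvent, from the values (black circles) and from distinct alignment positions on exons (green diamonds), with the standard error of the fit with the replicate block as bars. Filled symbols passed an adjusted p of 0.05 in that fit. Filled symbols cluster among the calcium pores, and 1 filled symbol, the green one of Cacnb1, lies below 0.

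Sodium pores were low and changed by less in the values, where 1 of 8 was higher with the block (21.0% of all genes tested). By distinct positions 4 of 8 were higher with the block (26.1% of all genes) and 2 with condition alone (13.3%). The median log2 fold change of the 8 was 1.28 against 1.497 for the calcium pores. Scn11a is in both of these counts and Scn7a in the count of 4. Both genes met the minimum of 10 positions through the MS-275 libraries alone, so they had to differ. The median includes their 3.72 and 2.52. The most highly expressed sodium pore was Scn8a, a main sodium channel of neuronal axons, with 0.0416 and 0.0169 in solvent and 0.0424 and 0.0270 in MS-275 libraries (0.28 ± 0.30, adjusted p = 0.521 with the block, limma). The next, Scn3a, which is prominent in the embryonic brain, had 0.0118 and 0.00422 with solvent and 0.0133 and 0.00427 with MS-275, a log2 fold change of 0.06 that went to -0.45 under quantile normalization and -0.07 under median-ratio scaling. Replicate 1 was above replicate 2 for both genes in both conditions, by more than the conditions differed.

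Scn11a, the Nav1.9 channel of pain-sensing neurons, was the 1 sodium pore of 8 tested that passed with the block. Its values were 0.000880 and 0 with solvent and 0.00690 and 0.00317 with MS-275 (0.86 ± 0.22, adjusted p = 0.128 with condition alone and 0.00972 with the block, limma). Both solvent values lay under the minimum of 0.001, so the gene entered the test through its MS-275 libraries alone and had to differ. Its exons held 1 and 5 distinct positions with solvent and 31 and 45 with MS-275, on 1 and 3 of 27 exon blocks with solvent and on 12 and 16 with MS-275. The minimum of 10 positions was also met through the MS-275 libraries alone, so the test of its positions is no separate support.

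Scn11a lies on chromosome 9 beside Scn10a, another channel of sensory neurons, and both are on the minus strand (mm9 chr9:119662881-119734574 and chr9:119517584-119603478). Scn10a was listed at 0.000350 and 0 with solvent and 0.000950 and 0.000710 with MS-275, with 0 and 1 against 6 and 4 exonic positions. MS-275 libraries thus held more positions than solvent libraries at both neighbours, at counts that for Scn10a are too few to test.

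A second group of sodium pores lies on chromosome 2 (Scn3a, Scn1a, Scn9a and Scn7a, from 65295175 to 66622971). None of these 4 passed with the values and the block, with log2 fold changes of 0.06, 0.37, 0.45 and 0.16. Scn7a, whose product is a sodium-sensing relative of the channels, passed by distinct positions with the block on 3 solvent and 22 MS-275 positions, but it met the minimum of 10 through the MS-275 libraries alone and had to differ. Scn4a, the sodium channel of skeletal muscle, had 0.00108 and 0.000650 with solvent and 0.00680 and 0.00191 with MS-275, which did not overlap (0.62 ± 0.24, adjusted p = 0.0607 with the block, limma), and passed by distinct positions with the block (1.74, adjusted p = 0.00411).

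**Figure D3:**
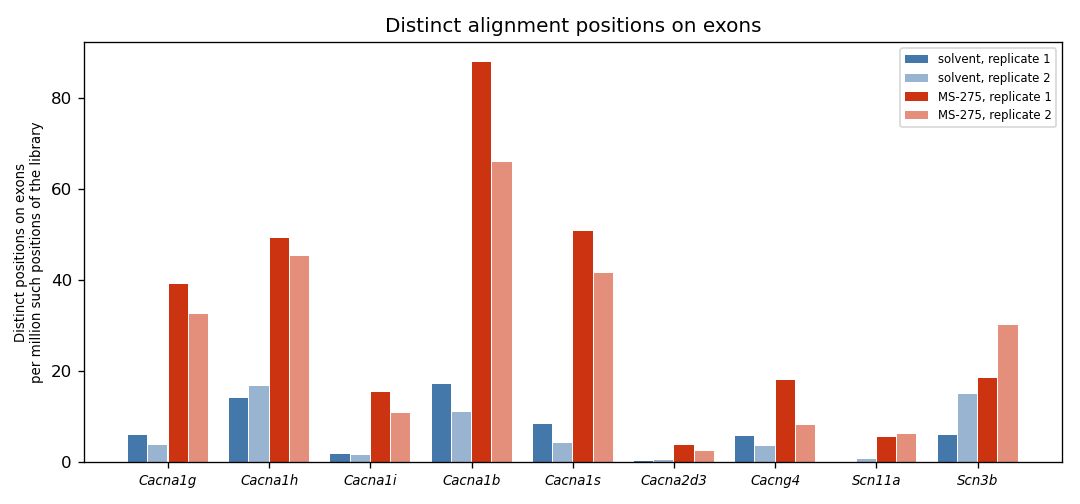
Distinct alignment positions on exons per 1000000 such positions of the library, with 1 bar per library (blue solvent, red MS-275, pale bars replicate 2). The genes shown are those called higher with the replicate block in the values, without Cacng1. Cacna1b goes from 17.2 and 11.1 with solvent to 87.7 and 65.9 with MS-275, and for every gene shown both red bars exceed both blue bars. Since the genes were picked by that call, this is no separate support. Scn11a and Cacna2d3 met the minimum value and the minimum of positions through MS-275 libraries alone and had to differ.

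The share of a transcript that was covered moved with the counts. For Cacna1g 21 and 11 of 38 exon blocks held a position with solvent and 35 in both MS-275 libraries. For Cacna1i the number went from 5 in both solvent libraries to 14 and 20 of 37. The number of blocks reached rises with the number of positions, so it is no separate measure of the change. For Cacna1a, at a higher level in solvent, 46, 46, 44 and 46 of 51 blocks held a position in solvent 1, solvent 2, MS-275 1 and MS-275 2. For Scn8a it was 23 and 24 of 30 blocks with solvent and 26 in both MS-275 libraries.

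**Figure D4:**
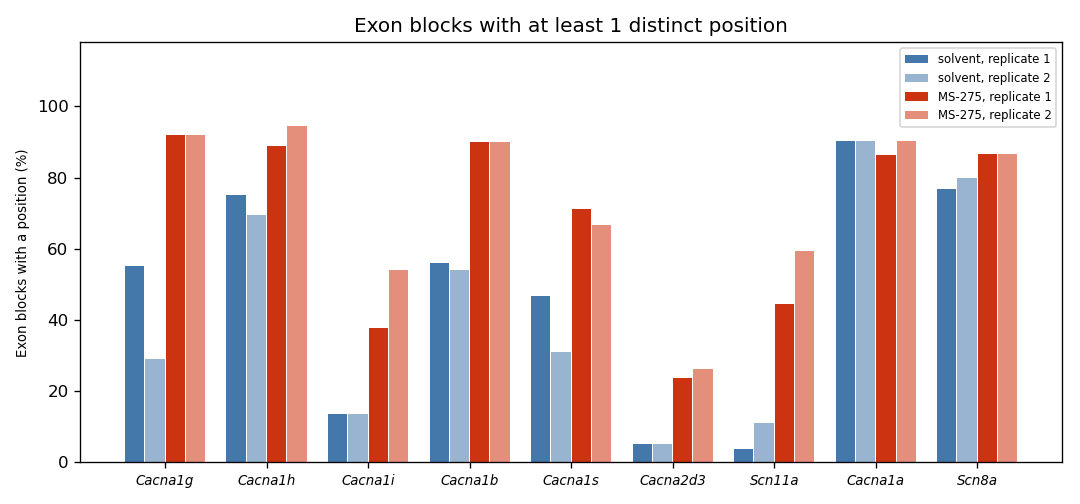
Percent of a gene's exon blocks that held at least 1 distinct alignment position, in each library (blue solvent, red MS-275, pale bars replicate 2). Cacna1g goes from 55.3% and 29.0% to 92.1% in both MS-275 libraries, while Cacna1a lies between 86.3% and 90.2% in all 4.

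Auxiliary subunits were expressed at higher levels than the pores, with a median solvent mean of 0.0158 against 0.00401, and 4 of 18 (22.2%) were higher with the block, near the 21.0% of all genes tested. By distinct positions 1 of 16 was higher with condition alone (13.3% of all genes) and 3 with the block (26.1%). The highest channel gene of all was Cacng7, which encodes a gamma subunit that also regulates AMPA receptors, with values of 0.220 and 0.227 with solvent and 0.290 and 0.191 with MS-275. Its solvent mean stood above 86.0% of the genes listed, and its log2 fold change was 0.08 ± 0.23 (-0.15 under median-ratio scaling) with an adjusted p of 0.843 with the block (limma). Cacng6, a gamma subunit of the muscle type, had 0.0612 and 0.111 with solvent and 0.0516 and 0.178 with MS-275, so its replicates differed more than its conditions did (0.22 ± 0.26 in the values and -0.53 by distinct positions, neither past the threshold).

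Cacng4 and Cacng1 were the 2 gamma genes that passed with the block. They lie beside Cacng5 on chromosome 11 (chr11:107593671-107655871, chr11:107564532-107577836 and chr11:107735919-107776369). Cacng4, an AMPA receptor regulatory protein of early brain, had 0.00726 and 0.00572 with solvent and 0.0186 and 0.0183 with MS-275, without overlap (1.03 ± 0.30, adjusted p = 0.365 with condition alone and 0.0177 with the block, limma). Cacng1, the gamma subunit of the skeletal muscle channel, had 0.000860 and 0.000360 with solvent and 0.00445 and 0.00485 with MS-275 (0.78 ± 0.22, adjusted p = 0.116 with condition alone and 0.0161 with the block), and like Scn11a it met the minimum value through its MS-275 libraries alone. Its exons held 1 position in each solvent library and 3 and 5 in the MS-275 libraries, too few to test. Cacng5 did not pass (0.04 ± 0.31, adjusted p = 0.936 with the block).

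Of the 4 alpha2delta genes, whose products bring the pore to the membrane and bind gabapentin-type drugs in part of the family, 1 passed with the block. Cacna2d3 had 0.000830 and 0.000230 with solvent and 0.00397 and 0.00298 with MS-275 (0.62 ± 0.21, adjusted p = 0.171 with condition alone and 0.0426 with the block, limma), again entering the test through MS-275 libraries alone, and its exons went from 2 and 3 distinct positions to 21 and 19, which met the minimum of 10 positions through those libraries alone too. Its introns held 40 positions with solvent and 73 with MS-275. The highest, Cacna2d2, had 0.0786 and 0.0459 with solvent and 0.0573 and 0.0548 with MS-275. Cacna2d1, the subunit of muscle and of many neurons, had 0.0517 and 0.0202 with solvent and 0.0452 and 0.0291 with MS-275, a log2 fold change of 0.13 that became -0.24 under quantile normalization and -0.06 under median-ratio scaling. Neither passed.

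None of the 4 calcium beta genes, whose products bind inside the cell and carry high-voltage pores to the membrane, was higher by either measure. Cacnb1, the beta subunit of skeletal muscle, had 0.0620 and 0.0336 with solvent and 0.0487 and 0.0181 with MS-275 (-0.53 ± 0.29, adjusted p = 0.188 with the block, limma). It was lower by distinct positions with the block, with 219 and 217 against 120 and 173 (-0.61 ± 0.19, adjusted p = 0.0127, limma-voom), and without MS-275 replicate 2 the log2 fold change of the values was 0.08. Cacnb3, a beta subunit of brain and smooth muscle, had 0.0498 and 0.0449 with solvent and 0.0837 and 0.0446 with MS-275, so the pairs disagreed.

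Of the 4 sodium beta genes, whose products are adhesion-type subunits that tune sodium current, Scn3b passed with the block. Its values were 0.0258 and 0.00570 with solvent and 0.0558 and 0.0171 with MS-275, higher with MS-275 in each pair although the groups overlapped (1.01 ± 0.31, adjusted p = 0.605 with condition alone and 0.0222 with the block, limma). Without solvent replicate 2 the log2 fold change was 0.25, and without solvent replicate 1 it was 1.78. Scn2b had 0.0419 and 0.0218 with solvent and 0.0218 and 0.0216 with MS-275 (-0.41 ± 0.32). It passed in no fit, and leaving out solvent replicate 1 took its log2 fold change to -0.0059 and leaving out solvent replicate 2 to -0.82.

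The genes that build the skeletal muscle calcium channel can be read together. Its pore gene Cacna1s and its gamma gene Cacng1 were higher with the block, but Cacng1 met the minimum value through its MS-275 libraries alone and had to differ. The alpha2delta gene Cacna2d1 did not pass, and the beta gene Cacnb1 was lower by distinct positions with the block. Ryr1, the release channel that this complex gates, was higher with the block, with 0.0142 and 0.00865 with solvent and 0.0329 and 0.0178 with MS-275 (0.86 ± 0.31, adjusted p = 0.577 with condition alone and 0.0483 with the block, limma), and Stac3, an adaptor of the complex, did not pass (0.36 ± 0.31). Of 10 muscle markers tested, 7 were higher with the block (21.0% of all genes tested) and 0 lower (6.46%), led by the myosin genes Myh6 (1.497) and Myh3 (1.48). The summed value of the list was 0.173 and 0.0762 with solvent and 0.406 and 0.180 with MS-275 (replicates 1 and 2, in this order for every list). Myod1, a myogenic factor and 1 of the 7, was listed at 0 in both solvent libraries and at 0.00296 and 0.00323 with MS-275. It met the minimum value through its MS-275 libraries alone and so had to differ. The part of muscle cells in the channel values was not tested.

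Markers of other cells the cultures could hold were read beside the channels. Of 8 neuron markers tested 2 were higher with the block, Elavl3 (2.56) and Syt1 (1.70), a share near that of all genes (21.0%), and 0 were lower. Gap43 (-0.45) and Stmn2 (-0.48) did not pass in the values and were lower by distinct positions with the block (adjusted p = 0.0303 and 0.00104, limma-voom). The summed value of the list was 1.33 and 2.39 with solvent and 1.23 and 2.23 with MS-275. Dcx, a marker of young neurons, was at or below 0.000510 in every library. Of 8 fibroblast markers, listed because TBV2 cells are kept on feeders, 5 were higher with the block (21.0% of all genes), led by Col1a1 (2.41) and Pdgfrb (1.20), and 0 were lower (6.46%). The summed value of these markers was 0.287 and 0.268 with solvent and 0.539 and 0.626 with MS-275. Col3a1 (-0.52) and Dcn (-0.72) did not pass in the values and were lower by distinct positions with the block (adjusted p = 0.0157 and 0.0469, limma-voom). No fibroblast marker was listed at 0. Of 8 ESC markers 2 were lower with the block (6.46% of all genes), Esrrb (-1.34) and Pou5f1 (-0.95). By distinct positions with the block both were lower, and so were Tdgf1, Klf4 and Nanog (adjusted p = 0.00258, 0.0142 and 0.0417, limma-voom), against 18.2% of all genes. Sox2, Zfp42 and Dppa5a did not pass there. The summed value was 5.08 and 22.2 with solvent and 4.26 and 13.4 with MS-275, so ESC transcripts remained the most abundant of the 4 lists. The part of fibroblast and neuronal cells in the channel values was likewise not tested.

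Genes whose products act on the channels were counted from lists in the same fit, and with condition alone no gene of these or the marker lists was called in the values. Of 12 partners and inhibitors of calcium channels 5 were higher with the block (21.0% of all genes) and 0 lower (6.46%). Stac, 1 of the 5, met the minimum value through its MS-275 libraries alone. By distinct positions Rims2, a presynaptic scaffold that binds calcium channels, was lower (-1.34, adjusted p = 0.0386 with condition alone, limma-voom). In the values the largest changes were those of Rem2 and Gem, small GTPases of the RGK family that bind the beta subunit and inhibit high-voltage calcium channels. Rem2 had 0.00996 and 0.00452 with solvent and 0.0591 and 0.0519 with MS-275 (2.34 ± 0.31, adjusted p = 0.0968 with condition alone and 6.41e-05 with the block, limma). Gem had 0.0142 and 0.0171 with solvent and 0.0738 and 0.101 with MS-275 (2.15 ± 0.28, adjusted p = 0.0925 with condition alone and 6.05e-05 with the block). Both changes were about as large as that of Cacna1s, and a further RGK gene, Rrad, was higher too (1.66). Rem1, the remaining member of that family, did not pass (0.51 ± 0.30).

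Of 9 partners of sodium channels 3 were higher with the block (21.0% of all genes) and 0 lower (6.46%). Among the 3 were Nfasc (0.78), an adhesion protein that gathers channels at nodes and axon initial segments, and Fgf12 (0.75), an intracellular FGF that binds the channel tail. Fgf12 met the minimum value through its MS-275 libraries alone. Of 6 related pore genes tested 1 was higher (21.0% of all genes), Unc80 (1.44), a subunit of the sodium leak channel, whose pore gene Nalcn did not pass (-0.40 ± 0.24). Of 6 calcium release channels 2 were higher (21.0% of all genes), Itpr2 (1.93) and Ryr1, and 1 was lower (6.46%), Ryr3 (-1.28).

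Rest itself was lower with the block, with values of 0.505 and 0.926 with solvent and 0.267 and 0.312 with MS-275 (-1.23 ± 0.25, adjusted p = 0.240 with condition alone and 0.00213 with the block, limma) and a log2 fold change of -1.03 by distinct positions (adjusted p = 0.00516 with condition alone, limma-voom). Of the 12 genes of the REST list, Rest and its partner Rcor3 (-0.95) were lower with the block (6.46% of all genes) and Hdac1 (0.75) was higher (21.0%). Of the 6 channel genes tested that carry a match to the REST letters, Cacna1b, Cacna1h, Cacna2d3 and Scn3b were higher with the block (Cacna2d3 tested through its MS-275 libraries alone), and Cacna1a and Cacna1f did not pass. Of all 36 channel genes tested 10 were higher, and of all genes 21.0%. The share among all genes that carry a match was not counted. The other 6 of the 10 higher channel genes, Cacna1s, Cacna1g, Cacna1i, Cacng1, Cacng4 and Scn11a, had no match in the window searched. Whether the level of Rest had a part in the channel values was not tested.

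Promoter windows of RefSeq (GRCm38.p6, from 250 bases before to 50 after a start) were given for 28 of the 38 genes, 38 windows in all. They had a median GC content of 60.3% and 11 CpG dinucleotides, against 52.7% and 7 over 32851 windows. On both strands, the GC box GGGCGG was in 42.1% of the channel windows and 35.7% of all, the TATA box letters TATAAA in 2.63% and 13.6%, the left core of the REST element CAGCACC in 0 and 7.14%, and its right core GACAGC in 10.5% and 19.2%. The windows of the 2 genes with the largest changes among those given are shown because they differ in kind, with GGGCGG or its complement and GACAGC in capitals.
Cacna1b, chr2:24763103-24763402, minus strand: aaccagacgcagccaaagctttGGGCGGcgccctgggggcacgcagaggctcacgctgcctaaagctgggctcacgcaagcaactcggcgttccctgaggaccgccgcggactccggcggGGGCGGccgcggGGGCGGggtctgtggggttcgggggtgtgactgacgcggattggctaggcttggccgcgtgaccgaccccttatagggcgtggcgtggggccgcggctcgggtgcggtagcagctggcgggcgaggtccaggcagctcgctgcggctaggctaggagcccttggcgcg
Cacna1s, chr1:136052561-136052860, plus strand: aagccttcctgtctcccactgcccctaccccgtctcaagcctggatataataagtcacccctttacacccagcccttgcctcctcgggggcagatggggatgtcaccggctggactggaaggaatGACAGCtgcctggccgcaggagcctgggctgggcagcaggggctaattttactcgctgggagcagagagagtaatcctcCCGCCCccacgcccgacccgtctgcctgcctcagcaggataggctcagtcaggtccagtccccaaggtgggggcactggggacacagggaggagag
The Cacna1b window holds 35 CpG dinucleotides at 72.3% GC and 3 GC boxes, and the Cacna1s window 9 at 63.0% GC with 1 GC box and 1 GACAGC.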

How the data were processed

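TBV2 ESC RNA was poly(A)-selected, primed with random hexamers and sequenced as 36-bp reads on a Genome Analyzer IIx by the authors. Libraries were grouped by their titles, and the library called a duplicate was taken as replicate 2. The vehicle is given as solvent. The authors mapped the reads to mm9, deposited the alignments and turned them with Genomatix into normalized expression signal values per gene. Aligner, formula and strand use are not given in the sources used here, so reads of genes that overlap on opposite strands cannot be told apart. The authors' tables of ratios between the conditions were not used.

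Values of at least 0.001 in at least 2 of 4 libraries (20336 genes) were fitted as log2(value + 0.005) with limma 3.58.1 (R 4.3.3; lmFit and eBayes with a trend, two-sided, Benjamini-Hochberg over all genes tested). The headers of the authors' ratio tables name replicate 1 of both conditions OLD, which was taken as the pairing. Deviations from the condition means correlated at 0.764 for values and 0.558 for positions. The deposited alignments of replicate 1 are named NEW and those of replicate 2 OLD, so alignments and values may be exchanged between replicates; fold changes across both libraries of a condition do not depend on this. For 16962 genes, distinct start positions and strands of alignments were counted on GENCODE exons of mm9 that belong to 1 gene (at least 10 in 2 libraries) and fitted with limma-voom on median-ratio library sizes, because repeats were removed in replicate 2 only. The fits were tested on simulated data. Python 3.11.15, numpy 2.4.6, pandas 2.3.3 and matplotlib 3.10.9 were used for the rest.

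The named genes were the members that passed with or without the block or were at least 2-fold changed the same way in both pairs (values under 0.001 set to 0.001), the 2 members of each role with the highest solvent mean, and up to 2 genes a direction of each list. The other genes named with values were added after their values were seen. The members, the lists and the REST letters were chosen with earlier results of these data known. Alternatives were other pseudocounts, filters and scalings, each with and without the block, and each library left out. Results of 2 members are not reported here by gene and are left out of the figures, while the counts and medians over members include them.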

Additional observations from a re-analysis of the deposited data

How the results depend on the processing

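Without the block no channel gene was called under any pseudocount, filter, scaling or moderation tried on the values, or with any library left out. With the replicate block the count higher was 10, and it was 3 with quantile normalization (14.4% of all genes tested) with 1 lower, Cacnb1 (14.6%), 10 with median-ratio scaling (16.5%), 10 with a pseudocount of 0.001 (20.7%), 9 with 0.02 (18.6%), 6 with a mean of at least 0.01 (18.7%) and 0 without a filter (0 of all genes). Distinct positions gave 8, and 14 with the block, with 1 lower. The cause of these differences was not tested. The count at least 2-fold higher in both pairs was 5 at 3-fold (6.43% of all genes) and 6 or 4 with values under 0.005 or 0.01 raised to that value.

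The median log2 fold change of all channel genes was 0.643 and 0.182 with pseudocounts of 0.001 and 0.02, 0.361 without a filter, 0.215 with a mean of at least 0.01, 0.0607 with quantile normalization, 0.289 with median-ratio scaling, 0.706 and 0.802 for distinct positions without and with the block, and 0.175 to 0.593 with a library left out. That of the pore genes was, in the same order, 0.940 and 0.215, 0.450, 1.53, 0.0860, 0.393, 1.497 and 1.49, and 0.175 to 0.828. That of the auxiliary genes was 0.390 with a pseudocount of 0.001, 0.132 with a mean of at least 0.01, -0.0519 with quantile normalization, 0.134 with median-ratio scaling and 0.102 to 0.513 with a library left out. For the values the block left every log2 fold change as it was.

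Genes that did not pass changed sign. Quantile normalization and median-ratio scaling gave -0.24 and -0.063 for Cacna2d1, -0.00669 and -0.00159 for Cacng6 and -0.45 and -0.070 for Scn3a. Median-ratio scaling gave -0.15 for Cacng7 and quantile normalization -0.12 for Scn8a. Distinct positions without and with the block gave -0.53 and -0.57 for Cacng6, and with the block -0.016 for Scn3a. With a library left out the ranges were -0.45 to 0.72 for Cacna2d1, -0.45 to 0.26 for Cacna2d2, -1.14 to 0.079 for Cacnb1, -0.078 to 0.76 for Cacnb3, -0.63 to 1.06 for Cacng6, -0.22 to 0.37 for Cacng7, -0.43 to 0.55 for Scn3a and -0.26 to 0.83 for Scn8a. Fits with a library left out assume that the lone library of a condition varies like the other condition. Values near 0.001 rest on few reads, and distinct positions undercount highly expressed genes.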

Other observations

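A further sodium pore gene, listed under the older symbol Scn2a1, fell outside the rule. It encodes the main sodium channel of excitatory neurons early in life and lies between Scn3a and Scn1a (mm9 chr2:65458914-65605504, plus strand). Its values were 0.0113 and 0.00443 with solvent and 0.0114 and 0.00797 with MS-275 (0.23 ± 0.29, adjusted p = 0.903 with condition alone and 0.588 with the block, limma). Cacng8, a gamma gene that lies between Cacng7 and Cacng6 on chromosome 7, had no row among the values analysed here. Its exons held 11 and 9 distinct positions with solvent and 14 and 11 with MS-275.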
